A study of Mus musculus with 9 samples.

Results

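The 10 genes described here encode transcription factors that are known for marking position in the embryonic limb and face: Lhx8, Lhx6, Msx1, Msx2, Pax3, Hand2, Alx4, Six2, Foxd1 and Tbx5. They were taken by symbol from a table of raw read counts for 43472 genes, leaving out the Hox and Dlx families, and all 10 symbols were found. They were chosen because their levels in these same libraries were known, so their levels and differences are described here without a test. All 10 passed the filter on low counts, which left 14257 genes, and several passed only through the tissue in which they were high. RNA came from C57BL/6J mice and was sequenced from bone (Bone, osteoblasts), mature cartilage (MatC, mature chondrocytes) and immature cartilage (ImC, immature chondrocytes), with 3 libraries of each tissue. The labels give no age, sex, treatment, genotype beyond the strain, stage or anatomical site. Since no site is given, tissue and site of origin cannot be told apart in any comparison below. Nor do they say if the 3 replicates of a tissue were different animals; p-values below therefore reflect the scatter of these libraries, which may be technical.

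Skeletal cells of the face come largely from the cranial neural crest, and those of the limb from lateral plate mesoderm. In both places, signals set up overlapping domains of transcription factors, and the set of factors that a mesenchymal cell carries records where it arose. In the limb, Tbx5 marks the forelimb field and its paralog Tbx4, with Pitx1, the hindlimb field, while Hand2 marks the posterior bud. In the first pharyngeal arch, from which the jaws form, Lhx6 and Lhx8 mark the oral side and Hand2 the distal end, and Msx1 and Msx2 act in tooth, palate and skull. Some of these factors stay on in skeletal cells after patterning, and Msx2 is known to act in osteoblasts of the skull vault.

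The start regions of 3 of the factors that were high in Bone are printed because these factors were high in every Bone library. Of the 10 genes, 7 matched the RefSeq promoter table (build GRCm38.p6), with 9 starts in all, and Tbx5, Alx4 and Pax3 were not matched. Lhx8 (chromosome 3, 154306294 to 154330659, minus strand) is shown as 151 of the 161 bases between its annotated start and that of AI606473, a noncoding transcript on the opposite strand, chr3:154330660-154330810. Msx1 (chromosome 5, 37820485 to 37824583, minus strand) and Lhx6 (chromosome 2, 36081953 to 36105408, minus strand) are shown as the 250 bases before a start, chr5:37824586-37824835 and chr2:36105409-36105658, for Lhx6 the first of 3 starts. All 3 stretches lie before the first annotated base of their genes in GENCODE M21 and are written on the strand of the gene, 5′ to 3′. Capitals mark GGGCGG or its complement CCGCCC, the core of a GC box.
Lhx8: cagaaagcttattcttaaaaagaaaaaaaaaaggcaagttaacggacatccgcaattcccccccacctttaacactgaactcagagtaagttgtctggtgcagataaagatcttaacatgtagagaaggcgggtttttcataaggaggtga
Msx1: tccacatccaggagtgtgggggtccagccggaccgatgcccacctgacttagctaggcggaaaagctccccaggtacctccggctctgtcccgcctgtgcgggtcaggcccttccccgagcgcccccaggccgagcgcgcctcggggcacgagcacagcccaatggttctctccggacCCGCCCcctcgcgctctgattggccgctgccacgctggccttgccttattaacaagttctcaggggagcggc
Lhx6: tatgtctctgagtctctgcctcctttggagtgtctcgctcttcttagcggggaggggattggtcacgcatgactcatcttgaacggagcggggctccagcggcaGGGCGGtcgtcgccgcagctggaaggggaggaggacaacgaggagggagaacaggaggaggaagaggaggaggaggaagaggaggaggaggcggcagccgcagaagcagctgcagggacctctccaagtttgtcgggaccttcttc
The Msx1 stretch was 68.0% G and C with 20 CG pairs, and the Lhx6 stretch 61.6% with 14 CG pairs. The stretches before the other Lhx6 starts were 57.2% G and C with 17 CG pairs and 46% with 7 CG pairs, and the last of these held no GGGCGG. The 250 bases before the RefSeq start of Lhx8, which lies inside the GENCODE gene, were 46.0% G and C with 4 CG pairs. On either strand, GGGCGG was in 32.7% of the 32851 promoter stretches of the same length in the table, once each in the Msx1 and Lhx6 stretches and not in that of Lhx8. TAATTA, the core bound by many homeodomain proteins, was in 4.84% of all stretches and in none of these 3. TATAAA was in 12.4% of all stretches and in none of these 3. The stretches before the RefSeq starts of Msx2, also high in every Bone library, and of Hand2 are not printed. They held TAATTA 1 time each. These are matches of letters and no measure of binding.

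Libraries held between 7913684 counts (Bone replicate 2) and 23159547 counts (MatC replicate 2). Levels are CPM, counts scaled to a common library total after correction by trimmed mean of M values. Mitochondrially encoded genes took 7.24% to 8.91% of counts in Bone, 33.7% to 82.3% in MatC and 32% to 55.0% in ImC. MatC replicate 3 stood apart, with 14940 genes that had a read against 17535 or more in the other 8 libraries, and 1 read there was worth 0.283 CPM. Tissue labels were checked on summed marker levels. The 10 osteoblast markers summed to 80174 to 95587 CPM in Bone, 1246 to 26640 in MatC and 523 to 582 in ImC, and most of the Bone sum came from Col1a1, Col1a2 and Ibsp. The 9 markers of immature chondrocytes (among them Sox9, Col2a1 and Acan) summed to 390 to 762 CPM in Bone, 7821 to 17983 in MatC and 12711 to 16610 in ImC. The 4 hypertrophic markers summed to 1025 to 1044 CPM in Bone, 2758 to 12523 in MatC and 142 to 607 in ImC, but the Bone sum was almost wholly Mef2c and Pth1r. Col10a1, the collagen that defines hypertrophic chondrocytes, stood at 0.845 to 2.48 CPM in Bone, 817 to 4760 in MatC and 0.427 to 0.750 in ImC. MatC libraries thus held osteoblast markers at very unequal levels. Intervals given below cover counting error only, because the RNA was amplified and reads are not independent molecules.

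Lhx8 and Lhx6, LIM-homeodomain factors of oral and jaw mesenchyme and of the ventral forebrain, were nearly restricted to the Bone libraries. Lhx8 stood at 34.8, 41.3 and 39.5 CPM in Bone, against 0.0758, 0.0705 and 0 CPM in MatC and 0, 0.149 and 0 CPM in ImC. That was 1827 reads in Bone, 2 in MatC and 3 in ImC. Every Bone library was far above every cartilage library, and the cartilage libraries were at or near 0. Pooled over libraries, Lhx8 was 589-fold higher in Bone than in MatC (95% counting interval 163 to 4871) and 587-fold higher than in ImC (201 to 2850). Lhx6 stood at 6.66, 7.62 and 6.42 CPM in Bone, 0.227, 0.282 and 0 CPM in MatC and 0.500, 0 and 0.356 CPM in ImC. The 3 Bone libraries were close together, and the cartilage libraries held 0 to 6 reads each. Its log2 fold change was 4.97 ± 1.0 (SE) for Bone over MatC and 4.64 ± 0.95 for Bone over ImC, the second being 5.37 without ImC replicate 1 and 4.0 without ImC replicate 2. In bulk tissue, fewer cells of a type and less RNA per cell cannot be told apart.

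Msx1 and Msx2, homeodomain factors induced by bone morphogenetic proteins in tooth, palate, skull and limb bud, were also highest in Bone, but cartilage kept a low level. Msx1 stood at 85.2, 83.1 and 63.5 CPM in Bone, 3.56, 2.89 and 1.41 CPM in MatC and 1.83, 0.745 and 5.20 CPM in ImC. All Bone libraries lay above all cartilage libraries, and MatC and ImC overlapped. The log2 fold change of Msx1 was 4.8 ± 0.65 for Bone over MatC, 4.91 ± 0.64 for Bone over ImC and 0.10 ± 0.59 for MatC over ImC, and the last 2 were 5.96 and 1.17 without ImC replicate 3. Msx2 (chromosome 13, 53466884 to 53473074) stood at 6.82, 5.57 and 3.66 CPM in Bone, 0.606, 0.846 and 0.566 CPM in MatC and 0, 0 and 0.570 CPM in ImC. The 8 Msx2 reads in ImC all came from replicate 3, so the ImC value rests on that library, and ImC is at 0 reads without it. The fitted log2 fold change was 2.94 ± 1.02 for Bone over MatC and 4.79 ± 1.12 for Bone over ImC, the second being 4.15 without ImC replicate 2.

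Markers of osteoclasts, macrophages and red cells were also higher in the Bone libraries than in most or all cartilage libraries. Osteoclast markers summed to 352 to 697 CPM in Bone, 9.05 to 314 in MatC and 4.91 to 6.83 in ImC, with 6 of 6 markers at 3 or more reads in each Bone library. Macrophage markers summed to 27.9 to 70.7 CPM in Bone, 5.37 to 50.4 in MatC and 2.67 to 5.06 in ImC. Endothelial markers summed to 33.1 to 107 CPM in Bone, 14.1 to 176 in MatC and 2.08 to 15.5 in ImC. Erythroid markers summed to 6434 to 9210 CPM in Bone, 874 to 3496 in MatC and 9.75 to 1424 in ImC. The part of these cells in the levels of Lhx8, Lhx6, Msx1 and Msx2 was not tested. Within MatC, replicate 2 had the highest sums of these lists and of the osteoblast markers (26640 CPM). It held 1 read of Lhx8 and 4 of Lhx6. The 4 neuron markers summed to 2.40 to 6.71 CPM in Bone, 3.68 to 61.0 in MatC and 0.750 to 1.44 in ImC. The highest sum, in MatC replicate 1, was mostly Stmn2 at 55.3 CPM. The 5 markers of surface epithelium summed to 0.676 to 2.71 CPM in Bone, 0 to 3.11 in MatC and 0.167 to 0.844 in ImC.

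**Figure D1:**
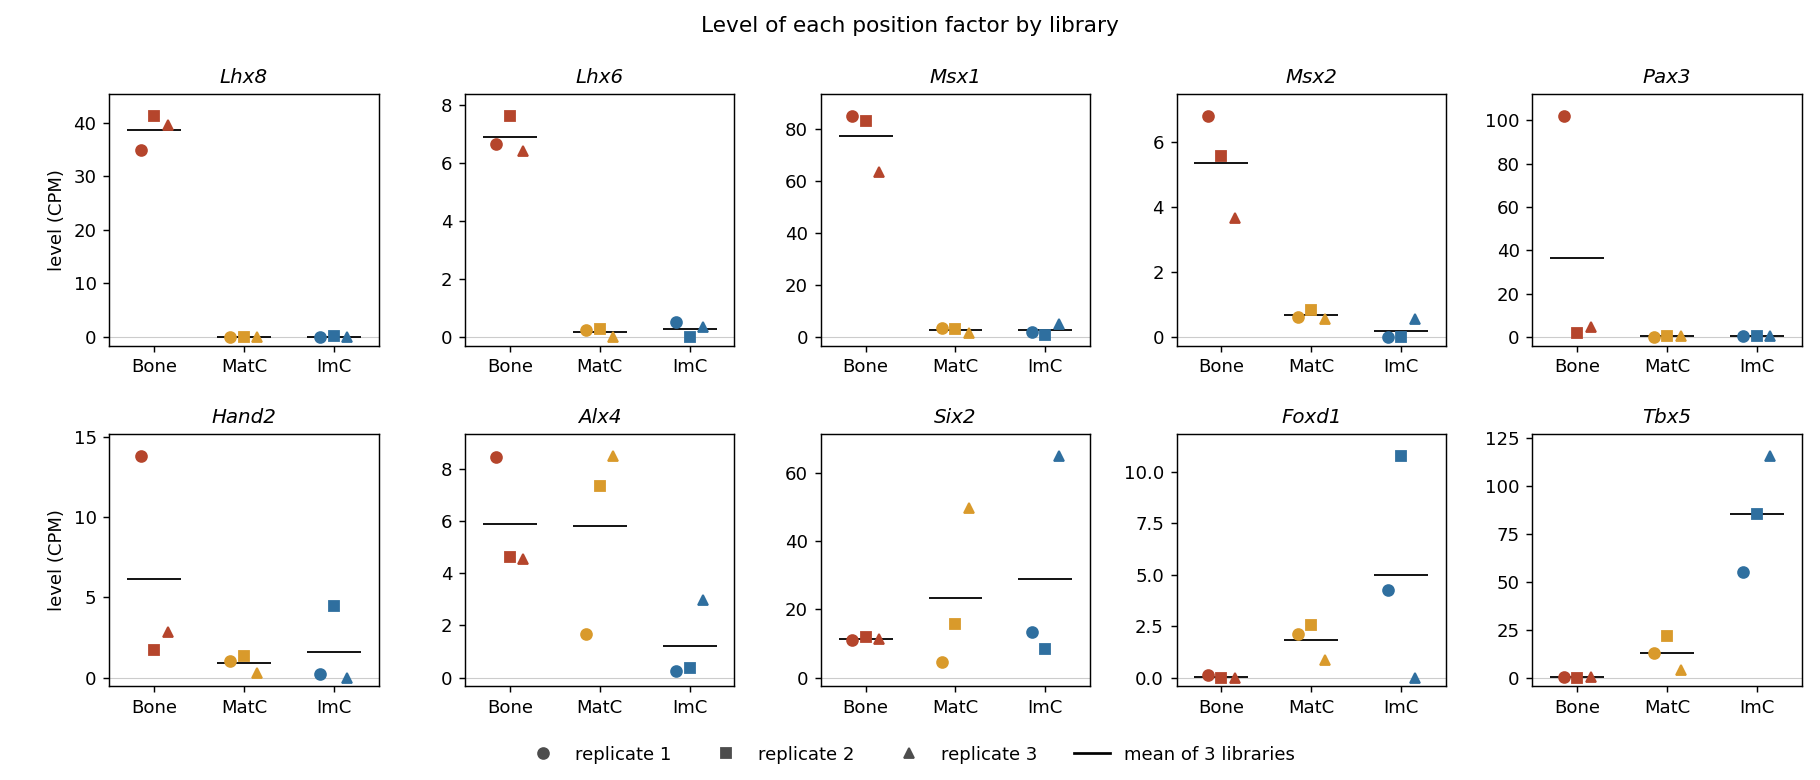
Level of the 10 position factors in CPM (vertical axes, linear, each with its own scale) in each Bone, MatC and ImC library; symbols give the replicate number and lines the mean of 3 libraries. Lhx8, Lhx6, Msx1 and Msx2 lie high in all 3 Bone libraries, Pax3 and Hand2 mainly in Bone replicate 1, and Tbx5 in ImC.

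Pax3 and Hand2 were high mainly in 1 Bone library. Pax3 (chromosome 1, 78101267 to 78197134), a paired-box factor of the neural crest and of muscle precursors, stood at 102, 2.05 and 4.79 CPM in Bone, 0.227, 0.423 and 0.566 CPM in MatC and 0.417, 0.298 and 0.570 CPM in ImC. Bone replicate 1 alone gave 1885 of the 1994 Bone reads. The other Bone libraries, with 24 and 85 reads, still lay above each cartilage library. The log2 fold change was 6.60 ± 1.48 for Bone over MatC and 6.4 ± 1.40 for Bone over ImC, and 3.16 and 3.0 without Bone replicate 1. Hand2 (chromosome 8, 57320983 to 57324633), a basic helix-loop-helix factor of the distal jaw and the posterior limb bud, stood at 13.8, 1.71 and 2.87 CPM in Bone, 1.06, 1.34 and 0.283 CPM in MatC and 0.250, 4.47 and 0 CPM in ImC. Bone replicate 1 was again the highest, and ImC replicate 2 lay above the other 2 Bone libraries, so that Bone and ImC overlapped. Hand2 had a log2 fold change of 2.65 ± 1.38 for Bone over MatC, 1.92 ± 1.31 for Bone over ImC and -0.73 ± 1.35 for MatC over ImC. Without Bone replicate 1 the first of these was 1.27 and the second 0.53, and without ImC replicate 2 the second was 5.59 and the third 2.94.

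Markers of muscle and of crest-derived glia were summed in the same libraries. The 8 markers of skeletal muscle and its progenitors summed to 8.39, 4.54 and 55.7 CPM in Bone, 17.7, 219 and 49.8 CPM in MatC and 6.75 to 10.5 CPM in ImC. Myf5, which marks muscle progenitors, stood at 0.379, 0.257 and 0.957 CPM in Bone. The 5 markers of Schwann cells and crest-derived glia summed to 2.91 to 6.08 CPM in Bone, 19.5 to 28.6 in MatC and 9.63 to 40.9 in ImC. Msx1, Msx2 and Alx4 were also highest in replicate 1 among the Bone libraries, while Lhx8 was lowest there. Osteoclast, macrophage and endothelial sums were lowest in that library, at 352, 27.9 and 33.1 CPM, and the erythroid sum was highest, at 9210 CPM. Dmp1, of the osteoblast list, stood at 1183, 75.3 and 70.0 CPM in Bone. The osteoblast sum of Bone replicate 1, 87492 CPM, lay between those of replicates 2 and 3. The part of other cells in the Pax3 and Hand2 levels was not tested.

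Alx4 and Six2 varied widely between libraries of the same tissue. Alx4 (chromosome 2, 93642384 to 93681339), a paired-type homeodomain factor of the skull and the anterior limb bud, stood at 8.45, 4.62 and 4.56 CPM in Bone, 1.67, 7.33 and 8.49 CPM in MatC and 0.250, 0.347 and 2.99 CPM in ImC. Bone lay above ImC without overlap and within the MatC range. Alx4 had a log2 fold change of 0.04 ± 0.87 for Bone over MatC, 2.30 ± 0.92 for Bone over ImC and 2.26 ± 0.93 for MatC over ImC, and the last 2 were 4.24 and 4.18 without ImC replicate 3. Alx4 overlaps Ext2, a heparan sulfate polymerase gene on the opposite strand, and the library kit did not mark strand, so reads of their shared stretch could not be told apart. Ext2 stood at 18.1 to 36.0 CPM in the 9 libraries, with means of 29.6 CPM in Bone, 26.7 in MatC and 28.9 in ImC.

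Six2 (chromosome 17, 85684277 to 85688274), a factor of kidney progenitors and of head mesenchyme, stood at 10.99, 11.8 and 11.4 CPM in Bone, 4.70, 15.8 and 49.8 CPM in MatC and 13.2, 8.39 and 65.0 CPM in ImC. The Bone libraries lay close together, and both cartilage groups had 1 library far above the rest, replicate 3 in each. The log2 fold change was -1.01 ± 0.86 for Bone over MatC, but 0.18 without MatC replicate 3 and 0.68 when libraries were scaled by their totals alone. It was -1.34 ± 0.85 for Bone over ImC, but 0.09 without ImC replicate 3. For MatC over ImC it was -0.33 ± 0.85, but 1.07 without ImC replicate 3, 0.17 without MatC replicate 1 and -1.47 without MatC replicate 3. These 2 libraries, MatC replicate 3 and ImC replicate 3, also had the fewest genes with a read, and the part of this in the Six2 level was not tested.

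Tbx5 and Foxd1 were read almost only in cartilage libraries. Tbx5 (chromosome 5, 119832668 to 119885219), the T-box factor that initiates the forelimb and acts in the heart, stood at 0.0541, 0 and 0.0563 CPM in Bone, 12.6, 21.9 and 3.96 CPM in MatC and 55.2, 85.6 and 116 CPM in ImC. The 3 tissues did not overlap: Bone held 2 reads, MatC 490 and ImC 4009. Pooled over libraries, Tbx5 was 380-fold lower in Bone than in MatC (95% counting interval 105 to 3144) and 2079-fold lower than in ImC (575 to 17175). For MatC over ImC its log2 fold change was -2.70 ± 0.54, or -3.30 without MatC replicate 2, and it was the only 1 of the 10 factors for which MatC and ImC did not overlap. Tbx3, the nearest coding gene to Tbx5 and a T-box factor of limb margins, ran the other way, at 10.8, 13.3 and 11.5 CPM in Bone, 1.44, 9.38 and 3.96 CPM in MatC and 0.917, 0.199 and 1.57 CPM in ImC. Tbx3 rose by 3.74 ± 0.81 on the log2 scale for Bone over ImC (edgeR quasi-likelihood test, Benjamini-Hochberg adjusted p = 0.00755). Foxd1 (chromosome 13, 98354242 to 98359305), a forkhead factor of the kidney stroma and the retina, stood at 0.108, 0 and 0 CPM in Bone, 2.12, 2.54 and 0.849 CPM in MatC and 4.25, 10.8 and 0 CPM in ImC. Each MatC library lay above Bone, while ImC spanned both, with 217 reads in replicate 2 and 0 in replicate 3. Pooled, it was 51.9-fold lower in Bone than in MatC (13.8 to 438) and 139-fold lower than in ImC (38.1 to 1154). Both Bone reads came from replicate 1, and 217 of the 268 ImC reads from replicate 2, without which the fitted log2 fold change for Bone over ImC was -5.41, against -6.67 with it. For MatC over ImC its log2 fold change was -1.39 ± 1.25, and -0.15 without ImC replicate 2.

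Within ImC, the summed level of the 10 markers of perichondrium, tendon and fibroblasts had the same order of libraries as Foxd1, with 417, 762 and 55.1 CPM in replicates 1, 2 and 3. Hand2 had this order too. Col3a1 made up most of the sum in ImC replicates 1 and 2. It stood at 357, 627 and 19.0 CPM in the ImC libraries. Pdgfra, at 49.0, 79.6 and 19.4 CPM there, had the same order, and Dcn, at 3.50, 1.34 and 4.77 CPM, did not. The sum was 571, 1130 and 1085 CPM in Bone and 1339, 552 and 505 CPM in MatC. In each ImC library 7 of the 10 markers had 3 or more reads, and Tnmd and Dpt were at 0 in all 3. The part of these cells in Foxd1 and Hand2 was not tested. The 5 markers of pericytes and smooth muscle summed to 45.5 to 68.7 CPM in Bone, 376 to 603 in MatC and 655 to 1091 in ImC, most of it from Cspg4, which chondrocytes also express.

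**Figure D2:**
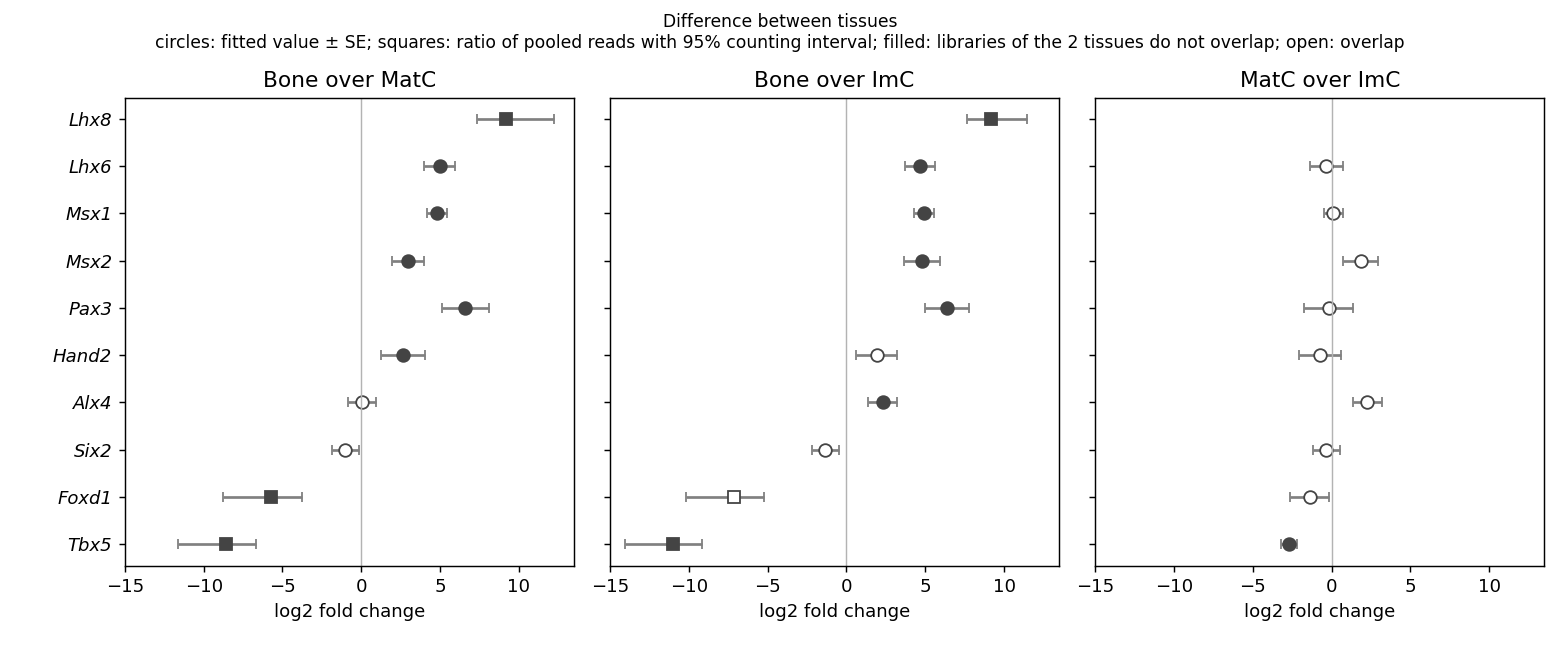
Log2 fold change of the 10 factors (horizontal axis) for Bone over MatC, Bone over ImC and MatC over ImC; circles are fitted values with SE, and squares are ratios of pooled reads with 95% counting intervals, used where the lower tissue held 1 to 3 reads. Filled symbols mark factors whose libraries did not overlap between the tissues; Lhx8 is left out for MatC over ImC, where both tissues held 3 reads or fewer.

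Per length of transcript, the leading factor differed by tissue. In CPM per kilobase of exon (RPKM, with GENCODE M21 exon lengths), Bone ran Msx1 24.9 ± 3.88 (SD, n = 3), Lhx8 15.2 ± 1.32, Pax3 5.87 ± 9.21, Six2 5.39 ± 0.195, Hand2 2.61 ± 2.84, Msx2 1.63 ± 0.485, Lhx6 1.44 ± 0.132 and Alx4 0.832 ± 0.315. Msx1 lay above Lhx8 in every Bone library, and Lhx6 above Alx4. All other neighbours in that order overlapped. MatC was led by Six2 at 11.1 ± 11.1 RPKM and Tbx5 at 2.74 ± 1.91, followed by Msx1 at 0.847 ± 0.355 and Alx4 at 0.826 ± 0.517. ImC was led by Tbx5 at 18.3 ± 6.46 RPKM and Six2 at 13.6 ± 14.8, with Foxd1 at 0.989 ± 1.07 and Msx1 at 0.837 ± 0.750 far below. In both cartilage tissues Tbx5 and Six2 overlapped.

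Counted over the 10 factors, Bone lay above MatC without overlap for 6 and below it for 2, where 17.9% and 17.7% of all genes did so. Bone lay above ImC for 6 and below it for 1, where 30.1% and 28.8% of all genes did so. MatC lay above ImC for 0 and below it for 1, where 11.4% and 12.5% of all genes did so. The factors were picked on these contrasts, so nothing is read from the shares or from the medians that follow. The median log2 fold change over the 10 was 2.80 for Bone over MatC, 3.47 for Bone over ImC and -0.26 for MatC over ImC, against -0.03, -0.02 and 0.03 over all genes tested.

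Other patterning genes were counted in 6 lists with 122 genes, of which 80 passed the filter on low counts. The test was edgeR's quasi-likelihood test with Benjamini-Hochberg adjustment over all 14257 genes, and a gene was called at an adjusted p under 0.05. For Bone over MatC, 3 of the 80 rose and 4 fell, where 1.36% and 4.69% of all genes did so. For Bone over ImC, 32 rose and 13 fell, where 14.3% and 16.8% of all genes did so. For MatC over ImC, 18 rose and 2 fell, where 5.41% and 2.29% of all genes did so. The median log2 fold change over the 80 genes was 0.15, 0.41 and 0.60 in these 3 comparisons. Both comparisons with Bone share the Bone libraries and both with ImC share the ImC libraries. The count for Bone over MatC fell when any 1 Bone library was left out. It was 1 without Bone replicate 1, 1 without Bone replicate 2 and 3 without Bone replicate 3. Without ImC replicate 3 it was 17. The count for MatC over ImC was 11 without ImC replicate 1.

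**Figure D3:**
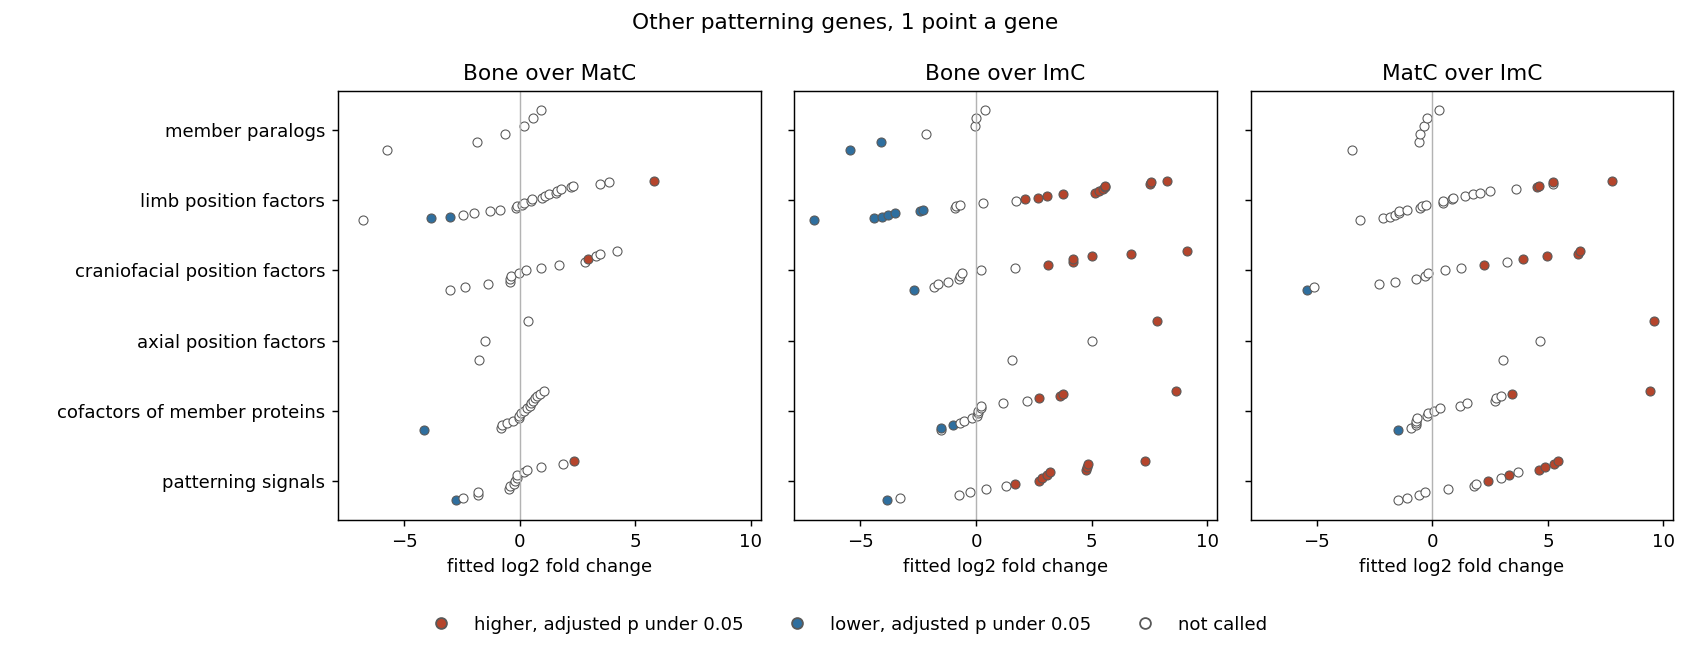
Fitted log2 fold change (horizontal axis) of the 80 other patterning genes that passed the filter on low counts, by list, for Bone over MatC, Bone over ImC and MatC over ImC; red marks genes that were higher and blue genes that were lower at an adjusted p under 0.05, and open points were not called. Called genes number 7, 45 and 20 in the 3 panels; for genes with 0 to 3 reads in a tissue the fitted value depends on a prior count.

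Of 16 paralogs of the 10 factors, 6 passed the filter. Of these, 0% rose and 33.3% fell for Bone over ImC, where 14.3% and 16.8% of all genes did so. For Bone over ImC, 2 of the 6 fell: Tbx4, the hindlimb counterpart of Tbx5, by 4.13 ± 1.28 on the log2 scale (edgeR adjusted p = 0.0337) and Lhx9, a limb bud and gonad factor, by 5.47 ± 1.53 (edgeR adjusted p = 0.0225). Tbx4 averaged 0.253 ± 0.152 CPM in Bone, 0.328 in MatC, where 1 library held all 13 reads, and 4.40 ± 4.34 CPM in ImC (SD, n = 3). The Tbx4 call ended without any 1 of the 3 Bone libraries, ImC replicate 1 or ImC replicate 2, at adjusted p of 0.057 to 0.121, and without ImC replicate 2 its log2 fold change was -2.94. Without that library the log2 fold change of Lhx9 was -4.76. The Lhx9 call ended without any 1 of the Bone libraries, at adjusted p of 0.0664 to 0.0861. No paralog passed for Bone over MatC or MatC over ImC. Lhx2 averaged 0.355, 1.23 and 1.71 CPM in Bone, MatC and ImC. Six4 averaged 21.5, 14.3 and 21.6 CPM and Six5 24.0, 21.2 and 25.1 CPM in Bone, MatC and ImC. Msx3, Alx1, Pax7, Six3, Six6, Hand1, Foxd2, Foxd3 and Foxd4 were among those that did not pass the filter. Of these, Pax7 held 32 reads in Bone, 86 in MatC, all from MatC replicate 2, and 5 in ImC.

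Limb position factors were called in both directions. Of 24 tested, 12 rose and 7 fell for Bone over ImC, 1 rose and 2 fell for Bone over MatC, and 4 rose and 0 fell for MatC over ImC. Shares of the list were 50% and 29.2%, 4.17% and 8.33%, and 16.7% and 0%. Those of all genes were 14.3% and 16.8%, 1.36% and 4.69%, and 5.41% and 2.29%. Pitx1, a factor of the hindlimb and the jaw, averaged 17.3 ± 1.58 CPM in Bone, 0.235 ± 0.407 in MatC and 0.0662 ± 0.115 in ImC. Its log2 fold change was 5.82 ± 1.06 for Bone over MatC (edgeR adjusted p = 0.0128) and 7.59 ± 1.16 for Bone over ImC (edgeR adjusted p = 0.0016). The call against MatC ended without Bone replicate 1, 2 or 3, at adjusted p of 0.0517 to 0.0652, and all 10 MatC reads came from MatC replicate 2. All 4 ImC reads came from ImC replicate 2, so that either cartilage was at 0 reads without that library. Without MatC replicate 1 the log2 fold change of Pitx1 for Bone over MatC was 5.15. Tbx2, a T-box repressor, averaged 15.9 ± 3.97 CPM in Bone and 11.2 ± 8.89 in MatC, and ImC held 2 reads. The ratio of pooled reads to ImC was 376 for Bone (95% counting interval 104 to 3114, edgeR adjusted p = 0.00036) and 327 for MatC (90.0 to 2710, edgeR adjusted p = 0.0025). Prrx1, a factor of limb bud and head mesenchyme, averaged 242 ± 31.4 CPM in Bone, 225 ± 210 in MatC and 6.02 ± 2.31 in ImC, and was called higher in Bone and in MatC than in ImC (edgeR adjusted p = 0.0012 and 0.0054). The log2 fold change of Prrx1 for MatC over ImC was 5.23, but 4.20 without MatC replicate 1. Irx3, an Iroquois homeodomain factor of the limb bud, averaged 12.7 ± 2.94 CPM in Bone, 6.09 ± 3.13 in MatC and 0.226 ± 0.323 in ImC. It rose for Bone over ImC by 5.60 ± 0.89 (edgeR adjusted p = 0.00195) and for MatC over ImC by 4.51 ± 0.87 (edgeR adjusted p = 0.0154), but not without ImC replicate 1 (adjusted p = 0.0596), and by 6.94 without ImC replicate 2.

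Shox2 was called lower in Bone than in either cartilage, and Meis1 and Meis2 lower than in ImC only. Shox2, which the upper limb segment needs, averaged 12.6 ± 4.68 CPM in Bone, 103 ± 8.59 in MatC and 141 ± 87.2 in ImC. It fell by 3.03 ± 0.55 on the log2 scale for Bone over MatC (edgeR adjusted p = 0.0127) and by 3.49 ± 0.56 for Bone over ImC (edgeR adjusted p = 0.0020). The call against MatC ended without Bone replicate 1 (adjusted p = 0.0781) and without Bone replicate 2 (adjusted p = 0.0830). Meis1 and Meis2, homeodomain factors of the limb base, fell for Bone over ImC by 3.81 ± 0.56 (edgeR adjusted p = 0.0013) and 4.06 ± 0.99 (edgeR adjusted p = 0.0128). Meis1 averaged 1.24 ± 0.187 CPM in Bone, 4.93 ± 2.98 in MatC and 17.4 ± 1.87 in ImC. Meis2 averaged 6.78 ± 1.22 CPM in Bone and 37.8 ± 34.9 in MatC. Neither was called for Bone over MatC (edgeR adjusted p = 0.0582 for Meis1 and 0.152 for Meis2). The Meis2 call against ImC ended without Bone replicate 2 (adjusted p = 0.0596). Without ImC replicate 2 the Meis2 log2 fold change was -2.63. Tbx18, a factor of anterior limb and somite, fell by 3.85 ± 0.83 for Bone over MatC (edgeR adjusted p = 0.0256), a call that ended without Bone replicate 1 (adjusted p = 0.120), Bone replicate 2 (0.117) or MatC replicate 1 (0.0505), and with library size only (0.115). Without Bone replicate 3 the log2 fold change of Tbx18 was -5.28.

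Of 15 craniofacial factors tested, 6 rose and 1 fell for Bone over ImC, 1 rose and 0 fell for Bone over MatC, and 5 rose and 1 fell for MatC over ImC. Shares of the list were 40% and 6.67%, 6.67% and 0%, and 33.3% and 6.67%. Those of all genes were 14.3% and 16.8%, 1.36% and 4.69%, and 5.41% and 2.29%. Zeb2, a zinc finger factor of the neural crest, averaged 93.1 ± 6.85, 28.1 ± 20.2 and 0.871 ± 0.466 CPM in Bone, MatC and ImC, and rose by 6.69 ± 0.71 for Bone over ImC (edgeR adjusted p = 0.000255) and by 4.98 ± 0.67 for MatC over ImC (edgeR adjusted p = 0.0035), or 4.37 without MatC replicate 2. Twist1, a basic helix-loop-helix factor of head and limb mesenchyme, rose by 3.13 ± 0.44 for Bone over ImC (edgeR adjusted p = 0.0010) and by 2.22 ± 0.42 for MatC over ImC (edgeR adjusted p = 0.0151), the second call ending without ImC replicate 1 (adjusted p = 0.0624). Foxf1, a factor of visceral and jaw mesenchyme, rose by 2.94 ± 0.64 for Bone over MatC (edgeR adjusted p = 0.0264), a call that ended without Bone replicate 1, 2 or 3 or MatC replicate 1 or 3, at adjusted p of 0.0567 to 0.141.

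Barx1, a factor of molar-forming jaw mesenchyme and stomach, stood at 0.227, 0.494 and 0 CPM in MatC, against 8.58, 30.3 and 0.285 CPM in ImC. It fell by 5.41 ± 1.40 for MatC over ImC (edgeR adjusted p = 0.0448), although the libraries of the tissues overlapped. That call ended when any 1 library other than ImC replicate 3 was left out, at adjusted p of 0.0659 to 0.129, and with limma-voom (adjusted p = 0.304). The log2 fold change was -3.85 without ImC replicate 2 and -6.21 without MatC replicate 2. Among 3 axial factors tested, Meox1, a homeodomain factor of somites, held 93 reads in Bone, 275 in MatC and 0 in ImC. In MatC replicates 1, 2 and 3, Meox1 stood at 5.84, 13.8 and 0.566 CPM, so its MatC reads came mostly from replicates 1 and 2. Against a floor of 3 reads over the ImC libraries, Meox1 was at least 29.9-fold higher in Bone (edgeR adjusted p = 0.0094) and at least 137-fold higher in MatC (edgeR adjusted p = 0.0146).

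Cofactors of the 10 proteins made up a short list of calls. Of 17 tested, 4 rose and 2 fell for Bone over ImC, 0 rose and 1 fell for Bone over MatC, and 2 rose and 1 fell for MatC over ImC. Shares of the list were 23.5% and 11.8%, 0% and 5.88%, and 11.8% and 5.88%. Those of all genes were 14.3% and 16.8%, 1.36% and 4.69%, and 5.41% and 2.29%. LIM-homeodomain factors such as Lhx6 and Lhx8 work through Ldb proteins. Ldb2 averaged 59.7 ± 7.22 CPM in Bone, 28.5 ± 18.9 in MatC and 4.40 ± 3.32 in ImC. For Bone over ImC it rose by 3.77 ± 0.83 on the log2 scale (edgeR adjusted p = 0.0082). Ldb1 averaged 37.2 ± 0.576, 25.3 ± 4.44 and 41.4 ± 10.7 CPM in Bone, MatC and ImC. Lmo2, a LIM-only protein that competes for Ldb proteins and also acts in blood and vessels, held 164 reads in Bone, 244 in MatC and 0 in ImC. In MatC replicates 1, 2 and 3, Lmo2 stood at 7.96, 9.73 and 0.283 CPM, so its MatC reads came mostly from replicates 1 and 2. It was at least 52.7-fold higher in Bone than in ImC (edgeR adjusted p = 0.0062) and at least 122-fold higher in MatC (edgeR adjusted p = 0.0151), and the endothelial and erythroid sums given above were also higher in Bone than in ImC, while MatC overlapped ImC; their part in the Lmo2 level was not tested. Dach1, a nuclear corepressor that binds Eya proteins, peaked in MatC, with 0.641 ± 0.208 CPM in Bone, 11.5 ± 3.46 in MatC and 1.06 ± 0.482 in ImC. It fell by 4.13 ± 0.56 for Bone over MatC (edgeR adjusted p = 0.0029) and rose by 3.45 ± 0.54 for MatC over ImC (edgeR adjusted p = 0.0070), and both calls were lost only with libraries scaled by their totals (adjusted p = 0.0573 and 0.0567).

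Further cofactor calls ended when 1 library was left out. Eya4, an Eya coactivator, the class that partners Six2, rose by 3.64 ± 0.94 for Bone over ImC (edgeR adjusted p = 0.0160), but not without Bone replicate 1 (2.97, adjusted p = 0.0725). Ssbp3, which stabilises Ldb complexes, fell by 1.0 ± 0.32 for Bone over ImC (edgeR adjusted p = 0.0380) and by 1.49 ± 0.33 for MatC over ImC (edgeR adjusted p = 0.0251). The first Ssbp3 call ended without Bone replicate 1, 2 or 3 or ImC replicate 3, at adjusted p of 0.0960 to 0.135, and the second without Bone replicate 1, 2 or 3 or MatC replicate 1 or 3, at 0.0515 to 0.0734. Without Bone replicate 1, 2 or 3 the Ssbp3 log2 fold change for MatC over ImC stayed at -1.49. Tcf3, an E protein that pairs with factors such as Hand2, fell by 1.5 ± 0.47 for Bone over ImC (edgeR adjusted p = 0.0344), but not without Bone replicate 1, 2 or 3 or ImC replicate 3 (adjusted p of 0.0870 to 0.125). Without ImC replicate 3 the Ssbp3 and Tcf3 falls for Bone over ImC shrank to 0.57 and 0.73.

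Of 15 patterning signals tested, 9 rose and 1 fell for Bone over ImC, 1 rose and 1 fell for Bone over MatC, and 6 rose and 0 fell for MatC over ImC. Shares of the list were 60% and 6.67%, 6.67% and 6.67%, and 40% and 0%. Those of all genes were 14.3% and 16.8%, 1.36% and 4.69%, and 5.41% and 2.29%. Bmp4, a ligand that induces Msx1 and Msx2 in tooth and limb, averaged 26.3 ± 7.68 CPM in Bone, 5.05 ± 2.45 in MatC and 0.976 ± 0.424 in ImC. It rose by 4.75 ± 0.52 for Bone over ImC (edgeR adjusted p = 0.00029) and by 2.34 ± 0.46 for Bone over MatC (edgeR adjusted p = 0.0176), and the call against MatC ended without Bone replicate 1, 2 or 3 (adjusted p of 0.0524 to 0.101). Genes of retinoic acid synthesis and breakdown were called in opposite directions for Bone over ImC. Aldh1a3, which makes retinoic acid, averaged 22.0 ± 0.672, 19.5 ± 12.3 and 0.813 ± 0.421 CPM in Bone, MatC and ImC, and rose by 4.78 ± 0.64 for Bone over ImC (edgeR adjusted p = 0.00088) and by 4.60 ± 0.64 for MatC over ImC (edgeR adjusted p = 0.0042). Cyp26b1, which breaks it down and keeps it low in the distal limb, averaged 3.48 ± 1.32, 23.5 ± 4.47 and 50.6 ± 33.8 CPM in Bone, MatC and ImC.

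Cyp26b1 fell by 3.85 ± 0.52 for Bone over ImC (edgeR adjusted p = 0.00090), or 3.15 without ImC replicate 2, and by 2.74 ± 0.50 for Bone over MatC (edgeR adjusted p = 0.0135), the second call ending without Bone replicate 1, 2 or 3 at adjusted p of 0.0531 to 0.0825. Rarb, a retinoic acid receptor and target, rose by 3.22 ± 0.61 for Bone over ImC (edgeR adjusted p = 0.0046) and by 3.33 ± 0.62 for MatC over ImC (edgeR adjusted p = 0.0145), the second call ending without ImC replicate 1 (adjusted p = 0.0551). Ednrb, an endothelin receptor of the neural crest, rose by 5.27 ± 0.99 for MatC over ImC (edgeR adjusted p = 0.0147), or 4.20 without MatC replicate 2 and 6.03 without ImC replicate 1.

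Likeness between genes was described by Pearson's r of log2 CPM (prior count 2) over the 9 libraries, which share tissue groups, so that any gene with the same tissue order scores high. Among the 10 factors, Lhx6 was most like Msx1 (r = 0.974) and Lhx8 was close to both (0.935 with Lhx6, 0.945 with Msx1), and Msx1 and Msx2 gave 0.928. Tbx5 ran opposite to Lhx8 (r = -0.921). Of the 14256 other genes, the pair most like each factor was Gpr50 and Lppr5 for Lhx8 (both 0.995), Avpi1 (0.987) and Msx1 for Lhx6, Sod1 and Fendrr for Msx1 (both 0.982), and Zbtb16 (0.987) and Rhpn2 (0.984) for Msx2. It was Usp5 (0.929) and Slc38a11 (0.905) for Pax3, Myl12a and Ndnf for Hand2 (both 0.923), Bmp1 (0.976) and Nmt2 (0.968) for Alx4, and Preb (0.990) and Timm13 (0.986) for Six2. For Foxd1 it was Dusp18 (0.977) and Cenpp (0.968). None of these genes ranked among the leading 2 by Spearman's rho.

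For Tbx5 the pair was the noncoding RNA Gm26580 (0.989) and the sulfate transporter Slc26a2 (0.979), which cartilage matrix needs. Gm26580 (chromosome 1, 21959842 to 21962530) stood at 0.162, 0.171 and 0.450 CPM in Bone, 8.49, 9.59 and 5.66 CPM in MatC and 22.6, 24.2 and 26.2 CPM in ImC. As with Tbx5, the 3 tissues did not overlap and ImC was the highest, but the ImC libraries of Gm26580 lay closer together. Slc26a2 stood at 57.9 to 66.4 CPM in Bone, 324 to 346 in MatC and 537 to 1023 in ImC.

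The neighbour of Lhx8 across the stretch printed above, AI606473 (154330821 to 154334254), was singled out after its values were seen. It stood at 3.90, 6.68 and 4.39 CPM in Bone, from 228 reads in all, and at 0 reads in all 6 cartilage libraries. Like Lhx8, it was read in each Bone library, at a lower level. With the 0 set to 3 reads per tissue, it was at least 49.0-fold higher in Bone than in MatC and at least 73.3-fold higher than in ImC, which is given without a test because of how it was chosen. The annotated genes do not overlap, but the library kit did not mark strand, so the strand of the AI606473 reads is not known. The nearest coding genes on either side, Tyw3 and Slc44a5, were called in no comparison, with means of 4.30 and 0.633 CPM in Bone, 2.43 and 0.552 CPM in MatC and 2.98 and 0.160 CPM in ImC.

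**Figure D4:**
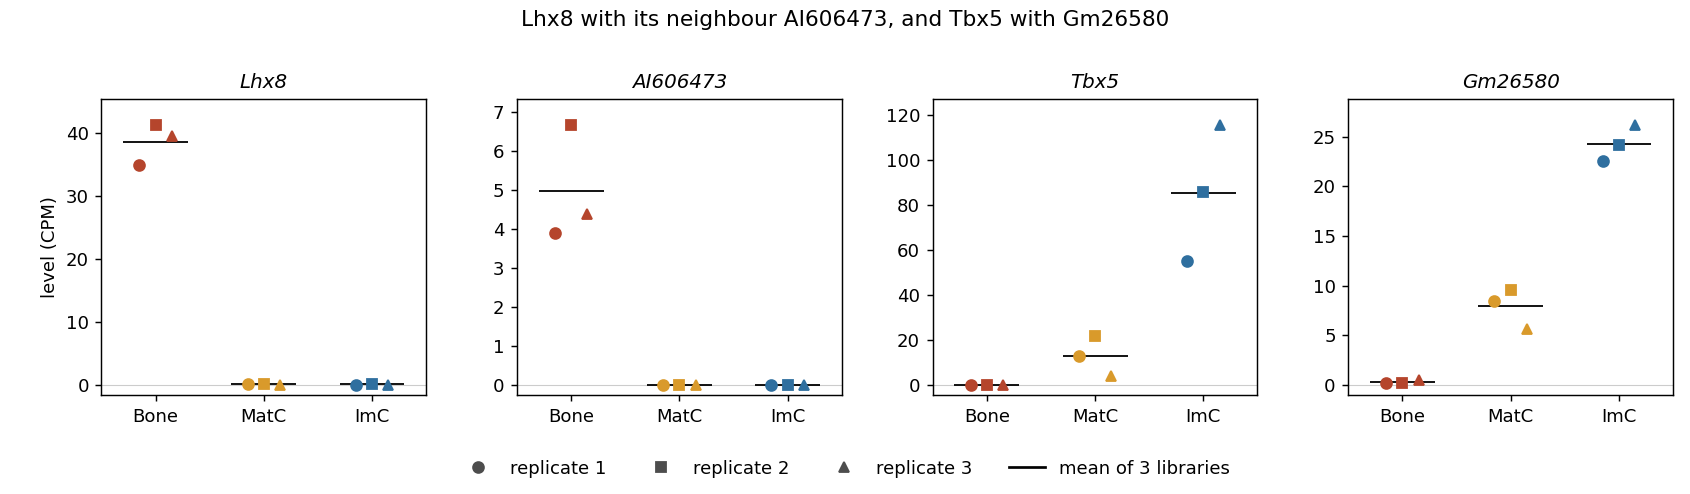
Level in CPM (vertical axes, linear, each with its own scale) of Lhx8 and its neighbour AI606473, and of Tbx5 and Gm26580, in each Bone, MatC and ImC library; symbols give the replicate number and lines the mean of 3 libraries. AI606473 has reads in the 3 Bone libraries and 0 in the others, and Gm26580 is highest in ImC, at 22.6 to 26.2 CPM.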

How the data were processed

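Per the labels' protocols, RNA was purified and DNase-treated, then amplified for 1 round and made into libraries with an Illumina TruSeq kit that does not mark strand. The authors deposited raw counts of 43472 gene symbols, and every column was mapped to a library. Trimmomatic 0.30, HTSeq, TopHat2, Bowtie2, edgeR and build mm10 are named in the submitters' processing notes, with no roles stated. A second deposited table gives 13302 genes as a score, normalized values that the authors rounded to whole numbers, and served only as an alternative scaling.

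All 9 libraries entered 1 fit in edgeR 4.0.16 (R 4.3.3) with a mean per tissue, TMM factors and genes kept by filterByExpr at a minimum count of 10, which held at least 99.8% of each library's counts. Each SE was taken as the size of the log2 fold change divided by the root of its F statistic. Positions come from GENCODE M21 (GRCm38, which UCSC calls mm10), matched by 90.8% of symbols. The procedure was tested on simulated data.

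The 10 factors and all lists were chosen with earlier results of these data known. The 6 lists of other patterning genes held paralogs, limb, craniofacial and axial factors, cofactors and signals, written from general knowledge. The text names the 10 factors, up to 3 called genes per list, comparison and direction with the smallest p, every listed paralog, and the 2 genes most like each factor. Outside this rule, Tbx3, Ext2, Tyw3 and Slc44a5 were named by position, Ldb1 beside Ldb2, and AI606473 after its values were seen. Some genes that this rule names are not reported here. Cell type lists numbered 13. Alternatives were other scalings, no filter, DESeq2 1.42.0, limma-voom (limma 3.58.1), fits of 2 tissues, a replicate block and leaving out each library.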

Additional observations from a re-analysis of the deposited data

How the results depend on the processing

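Depth limits the low factors most: Lhx6 and Msx2 rest on 0 to 12 reads in each cartilage library. Over 18 other settings and 1 added after seeing the data (MatC replicate 3 and ImC replicate 3 both left out), 543 of 564 fitted differences of the 10 factors moved by less than a replicate spread. That spread was the root of the summed variances of log2 CPM in the 2 tissues. It is wide for factors with scattered libraries, so the count does not show that these are stable. Six2 for Bone over MatC ran from -1.49 to 0.68 and stayed within it. The direction of Tbx5, Lhx6, Lhx8, Msx1, Msx2, Pax3, Hand2 and Foxd1 between Bone and either cartilage was the same in every setting run. For MatC over ImC the sign turned in at least 1 setting for Lhx6, Lhx8, Msx1, Pax3, Six2, Hand2 and Foxd1; limma-voom gave 0.62 for Lhx6, 1.23 for Hand2 and 0.56 for Foxd1. Alx4 for Bone over MatC was -0.31 without Bone replicate 1 and -0.41 without MatC replicate 1. The cause was not tested. Of 1151 refitted values of the other named genes, 93 lost the call, 8 gained one and none had a call in the opposite direction.

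Genes called for MatC over ImC numbered 1099 (70.2% higher), against 358 (53.4% higher) with library size only, 1690 with no filter, 2229 with DESeq2, 205 with only those 2 tissues fitted, 1908 with both replicates 3 left out and 355 to 1240 with 1 library left out, the fewest without ImC replicate 1. Patterning genes called there numbered 20, against 9, 40, 37, 6, 33 and 11 to 23 in the same settings. For Bone over MatC, 863 genes were called (22.5% higher), against 297 (40.1%) with library size only, 1504 with no filter, 1964 with DESeq2 (34.4%), 1605 with both left out (35.1%) and 167 to 1702 with 1 library left out, the fewest without Bone replicate 2. The share of higher calls was 40.0% with limma-voom and 36.7% with only those 2 tissues. Patterning genes numbered 7, against 4, 24, 20, 19 and 1 to 17, and 16 with only those 2 tissues. For Bone over ImC, 4432 genes were called (46% higher), against 2073 (59%) with library size only and 2343 to 5408 with 1 library left out, and 45 patterning genes, against 30 to 48. Scaling by library size alone moved the median of all genes by 1.01 for Bone over MatC, 0.48 for Bone over ImC and -0.53 for MatC over ImC on the log2 scale. With fewer libraries, or a filter or scaling changed, the test also adjusts over other genes and spreads; which of these moved the counts was not tested.

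Samples of different tissues share replicate numbers, and correlations of their deviations from the tissue means ran from -0.131 to 0.240, not all above 0.1. MatC and ImC gave 0.228 for replicates 1 and 0.240 for replicates 3, while libraries with different numbers reached 0.360. With a replicate block, 725 genes were called for MatC over ImC, 814 for Bone over MatC and 4088 for Bone over ImC, and 18, 7 and 40 patterning genes. The block ended the calls of Foxf1 for Bone over MatC (adjusted p = 0.0576), of Barx1 for MatC over ImC (0.0732), and of Tbx4 (0.0510), Tcf3 (0.0590) and Ssbp3 (0.0659), among others, for Bone over ImC.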
